A study of Mus musculus with 12 samples.

Results

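The AP-1 subunits Fos, Fosb, Fosl1, Fosl2, Jun, Junb and Jund and the small MAFs Maff and Mafk were followed in mouse bone marrow-derived mesenchymal stromal cells (MSCs). These 9 genes were taken by name from a list of the FOS, JUN and small MAF families, out of the 55487 genes of the count table. The rule uses names alone, although the families were picked with earlier results of these data known. All 9 passed the filter on low counts and were among the 11314 protein-coding genes tested. Fos and Fosb were the scarcest, at 6 to 95 and 13 to 29 counts per sample, and both reached the filter in the control samples as well as in treated ones.

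Control MSCs were untreated. A1-treated MSCs received 50 μM A1, a variant of the Accum molecule in which cholic acid is joined to the nuclear localization signal of hnRNPA1. A1 + OVA-treated MSCs received 50 μM A1 together with 1 mg/ml of the model antigen ovalbumin (OVA). Both treatments lasted 6 h and each of the 3 groups had 4 samples, all of them wild-type primary cells of C57BL/6 background grown in serum-containing medium. Per the study's methods, MSCs were flushed from the femurs of young female mice, expanded over several passages and frozen before use, and cells were detached before RNA extraction. The labels name no vehicle and no change of medium for the untreated cells, there was no group with OVA alone, and the treatment note for A1 + OVA also mentions insulin without a dose, so that OVA and insulin cannot be told apart. Nothing in the labels ties the 4 samples of a group to separate mice or cultures, so that p-values measure the spread between these samples, which may be technical. RNA was taken from whole cultures, in which fewer cells of a type and less RNA per cell cannot be told apart.

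AP-1 is a pair of basic leucine zipper proteins that binds DNA as a dimer. A FOS protein usually pairs with a JUN protein. JUN proteins can also pair with each other or with ATF proteins, and the pairing affects how strongly a gene is switched on. Fos, Fosb, Jun and Junb are immediate early genes, whose RNA rises and falls quickly after serum, growth factors or stress, through SRF at the Fos promoter and through kinases of the ERK, JNK and p38 families. Fosl1 and Fosl2 encode FRA1 and FRA2, which lack the strong activation domain of FOS and tend to stay on longer. Small MAFs have no activation domain of their own: they repress as homodimers and become activators when paired with NRF2 or another cap'n'collar (CNC) protein at antioxidant response elements. In stromal cells AP-1 is known for its control of matrix proteases, of the plasminogen activator system and of migration.

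Sites that AP-1 and ATF proteins are known to bind lie close to some of these genes. RefSeq promoter windows of GRCm38.p6, which run from 250 bases before a start site to 50 bases after it, were found for 8 of the 9 members, and not for Fosl1. They were searched on both strands for TGACTCA (the AP-1 site), TGACGTCA (the cAMP response element), TGACATCA (the variant of it known from the Jun promoter), TGACNNNGC (the core of the antioxidant response element) and the CArG box bound by SRF. Of all 32851 windows in the table, 5.2%, 1.79%, 3.62%, 12.4% and 1.63% held the 5 motifs in that order. Among the members, matches were found for Jun, Maff and Mafk. No member window held TGACTCA or the CArG box. Sequence farther than 250 bases before a start site, at Fos as elsewhere, was not searched. TGACATCA was searched because it is known from Jun, so that the Jun match was known beforehand. The Jun window had TGACATCA from position -45 to -38 relative to the start site, and the window of the most downstream of 3 Maff start sites had the same letters at the same positions. The window of the middle Maff start site had TGACGTCA from -29 to -22, and that of the most upstream one had TGACTCTGC from -112 to -104. The Mafk window had GCGGTGTCA, the antioxidant core read on the other strand, from -13 to -5. The RefSeq start used for Mafk lies 23 bases inside the GENCODE M21 gene, so that this match is within the gene. The windows of Fos, Fosb, Fosl2, Junb and Jund did not hold these exact letters, which says nothing of near matches or of binding elsewhere. That of Fos holds tgacgtag, which begins like TGACGTCA and was not counted. The RefSeq start used for Jund lies 1210 bases upstream of the start of the GENCODE M21 gene and that for Fosl2 lies 671 bases inside the gene, so that these windows do not cover the annotated starts. Junb and Jund rose and Fosl2 fell with A1 without a match, and whether the motifs bear on the changes was not tested. The 100 bases before the start sites of Jun and of the middle and downstream Maff transcripts are shown because they hold matches. Those of Fos are shown because Fos moved the other way. All are given 5′ to 3′ along the gene's strand, with a match in capitals:
Jun: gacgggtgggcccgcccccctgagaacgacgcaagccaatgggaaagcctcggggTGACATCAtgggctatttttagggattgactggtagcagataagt
Maff, middle start site: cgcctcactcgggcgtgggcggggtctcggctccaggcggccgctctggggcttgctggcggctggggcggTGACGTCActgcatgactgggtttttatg
Maff, downstream start site: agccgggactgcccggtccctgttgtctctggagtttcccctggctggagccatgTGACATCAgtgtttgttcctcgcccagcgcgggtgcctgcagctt
Fos: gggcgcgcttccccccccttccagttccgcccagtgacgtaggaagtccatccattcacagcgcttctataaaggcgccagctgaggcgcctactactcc

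The Jun stretch is chr4:95052223-95052322 on the minus strand. It lies outside the Jun gene and within an intron of the antisense gene Junos in the GENCODE M21 annotation. The Maff stretches are chr15:79347420-79347519 and chr15:79348302-79348401 on the plus strand, both within Maff and in none of its annotated exons. The Fos stretch is chr12:85473790-85473889 on the plus strand, between genes.

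Each sample had between 13702348 and 16881995 counts assigned to genes, with the A1-treated samples at 13702348 to 14347870 and the control samples at 15644991 to 16881995. Of 12 MSC markers, 10 were above 3 counts in every sample, and their summed level was 6270 to 6640 CPM in control, 4800 to 5020 CPM in A1-treated and 4720 to 4950 CPM in A1 + OVA-treated MSCs. These markers did not move as one. Of the 10 tested, 3 were higher (beside 31.7% of all tested genes) and 4 lower (beside 31.1%) with A1. Cxcl12 was at a mean of 3910, 1510 and 1690 CPM in that order, Itgb1 at 1450, 2220 and 2140 CPM, and Cd44 at 175, 458 and 402 CPM. Pdgfra (247, 125 and 111 CPM), Vcam1 (226, 117 and 122 CPM) and Ly6a (35.1, 23.3 and 24.9 CPM) also fell. The scarce Alcam rose from 0.321 to 0.747 CPM with A1. Of the markers that define MSCs, Nt5e (CD73) was at a mean of 0.539 CPM in control, and Thy1 (CD90), at 0.267 CPM, did not pass the filter on low counts. Of 11 macrophage and leukocyte markers, 2 were above 3 counts in every sample, Cd3e and S100a8 were at 0 throughout, and Adgre1, Itgam and Fcgr1 never exceeded 3 counts. Their summed level was 9.41 to 10.5 CPM in control, 12 to 14.7 CPM in A1-treated and 10.7 to 13.1 CPM in A1 + OVA-treated MSCs, mostly from Cd14, and was thus somewhat higher with A1. The 6 endothelial markers summed to at most 1.22 CPM and the 7 erythroid and platelet markers to at most 2.13 CPM in any sample. The part of these markers in the results below was not tested.

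In A1-treated MSCs Fosl1 rose most, Junb, Maff, Jun and Mafk rose by 1.6-fold to 2.16-fold, Jund rose slightly, and Fos and Fosl2 fell. With an adjusted p-value under 0.05 (edgeR's quasi-likelihood test, Benjamini-Hochberg adjustment over all tested genes), 6 members were higher, 2 were lower and 1 did not pass the test. The response to A1 was broad, since 62.7% of all tested genes passed the same test, 31.7% as higher and 31.1% as lower. The median log2 fold change was 0.68 over the 9 members and -0.002 over all tested genes, for which the lowest and highest 5% lay beyond -0.84 and 0.74.

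On the FOS side, Fosl1 (chr19:5447547-5455946, plus strand) was at 43.1, 41.3, 44.1 and 45.8 CPM in the 4 control samples. CPM are counts divided by the normalized library size. With A1 the same gene stood at 156, 170, 158 and 151 CPM, and with A1 + OVA at 140, 132, 137 and 129 CPM. Every treated sample was far above every control sample, and every A1 sample above every A1 + OVA sample. The log2 fold change was 1.87 (SE 0.05) with A1, or 3.64-fold, and 1.63 (SE 0.05) with A1 + OVA, or 3.09-fold, with adjusted p-values of 1.33e-18 and 1.84e-17. Counted from the highest log2 fold change, Fosl1 was number 93 of the 11314 tested genes with A1 and number 117 with A1 + OVA. Ccdc85b, which overlaps Fosl1 on the opposite strand and has 226 to 358 counts per sample, had a log2 fold change of 0.13 with A1 (adjusted p = 0.28) and of 0.29 with A1 + OVA (adjusted p = 0.0181).

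Fosl2 (chr5:32135801-32157842, plus strand) went the other way. It was at 174, 176, 177 and 182 CPM in control, at 129, 138, 135 and 140 CPM with A1, and at 135, 145, 154 and 145 CPM with A1 + OVA. Both treated groups lay below control in every sample and overlapped each other. The log2 fold change was -0.39 (SE 0.04) with A1 and -0.29 (SE 0.04) with A1 + OVA, at adjusted p-values of 3.83e-08 and 2.26e-06.

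Fos itself (chr12:85473890-85477273, plus strand) was scarce, with 95, 54, 46 and 31 counts in the control samples and 16, 17, 6 and 19 with A1. These counts are 5.88, 3.19, 2.85 and 1.94 CPM in control and 1.16, 1.3, 0.458 and 1.38 CPM with A1. The A1 samples were all below the control samples, which spread widely among themselves. The log2 fold change was -1.68 (SE 0.38, adjusted p = 0.000569), number 92 of all tested genes counted from the lowest. With A1 + OVA, Fos stood at 1.52, 1.2, 3.7 and 1.91 CPM, which overlapped both the control and the A1 samples. Its log2 fold change against control was -0.73 (SE 0.31) and did not pass the test, with an adjusted p-value of 0.0512. This value rests on single samples: it was -0.36 (adjusted p = 0.309) without control sample 1 and -1.16 (adjusted p = 0.00373) without A1 + OVA sample 3. It also passed without control sample 3 (adjusted p = 0.0453), without control sample 4 (0.0144) and without A1 sample 3 (0.0437).

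Fosb (chr7:19302696-19310051, minus strand) was close to the limit of what these libraries can show. Control samples had 20, 18, 13 and 27 counts, A1 samples 18, 26, 23 and 27, and A1 + OVA samples 14, 14, 24 and 29. The groups overlapped, and the log2 fold change with A1 was 0.54, with a 95% interval of 0.01 to 1.07 and an adjusted p-value of 0.0686. It passed the test without control sample 4 (0.75, adjusted p = 0.0218) and without A1 sample 1 (0.66, adjusted p = 0.0402). With A1 + OVA the log2 fold change was 0.15 (SE 0.26, adjusted p = 0.651).

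On the JUN side, Jun (chr4:95049034-95052222, minus strand, a gene of a single exon) was at 56.9, 54.8, 53.1 and 55.2 CPM in control. The A1 samples were at 99.3, 103, 99.4 and 104 CPM and the A1 + OVA samples at 96.8, 93.8, 88.7 and 86.4 CPM. The 3 groups did not overlap. Jun rose by a log2 fold change of 0.88 (SE 0.04, adjusted p = 1.69e-13) with A1 and of 0.73 (SE 0.04, adjusted p = 4.21e-12) with A1 + OVA. The antisense gene Junos had 76 to 115 counts per sample against 858 to 1481 for Jun, and the counting used strand.

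Junb (chr8:84974484-84978718, minus strand), which often acts as the weaker or opposing partner of JUN, was at 25.2, 22.7, 23.8 and 26.6 CPM in control. It was at 52.1, 53.4, 54.1 and 47.9 CPM with A1 and at 39.4, 41.6, 40.5 and 42.3 CPM with A1 + OVA, again without overlap between any groups. The log2 fold change was 1.08 (SE 0.06, adjusted p = 5.32e-13) with A1, and 0.74 (SE 0.06, adjusted p = 3.96e-10) with A1 + OVA.

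Jund (chr8:70698949-70700616, plus strand), the JUN protein that resting cells already carry, had the smallest change of the members called with A1. Control sample 1 was at 39.0 CPM, within the range of the treated samples, while the other 3 were at 27.3, 29 and 30.8 CPM. A1 samples were at 40.0, 37.3, 38.5 and 39.4 CPM and A1 + OVA samples at 39.6, 39.7, 40.9 and 36.5 CPM. The log2 fold changes were 0.30 (SE 0.08, adjusted p = 0.0026) with A1 and 0.31 (SE 0.08, adjusted p = 0.00182) with A1 + OVA, and without control sample 1 they were 0.42 and 0.43.

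Among the small MAFs, Maff (chr15:79346621-79359076, plus strand), the one known to be induced by stress and cytokines, was at 14.8, 15.4, 13.7 and 14.9 CPM in control. It was at 30.8, 32.7, 33.5 and 30 CPM with A1 and at 33.8, 34.8, 35.5 and 34.0 CPM with A1 + OVA, so that each A1 + OVA sample was above each A1 sample. The log2 fold change was 1.11 (SE 0.06, 2.16-fold, adjusted p = 8.37e-13) with A1 and 1.23 (SE 0.06, 2.35-fold, adjusted p = 1.16e-13) with A1 + OVA. Mafk (chr5:139791513-139802653, plus strand) was at 23.6, 21, 22 and 21.9 CPM in control, at 34.6, 35.2, 37.2 and 34.9 CPM with A1, and at 37.4, 34.6, 40.7 and 35.2 CPM with A1 + OVA. Both treated groups lay above control and overlapped each other, with log2 fold changes of 0.68 (SE 0.06, adjusted p = 3.7e-09) and 0.74 (SE 0.06, adjusted p = 7.98e-10). Mafg, the remaining small MAF and no member of the list, had smaller log2 fold changes of 0.32 (SE 0.06, adjusted p = 6.42e-05) and 0.45 (SE 0.06, adjusted p = 6.15e-07).

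**Figure D1:**
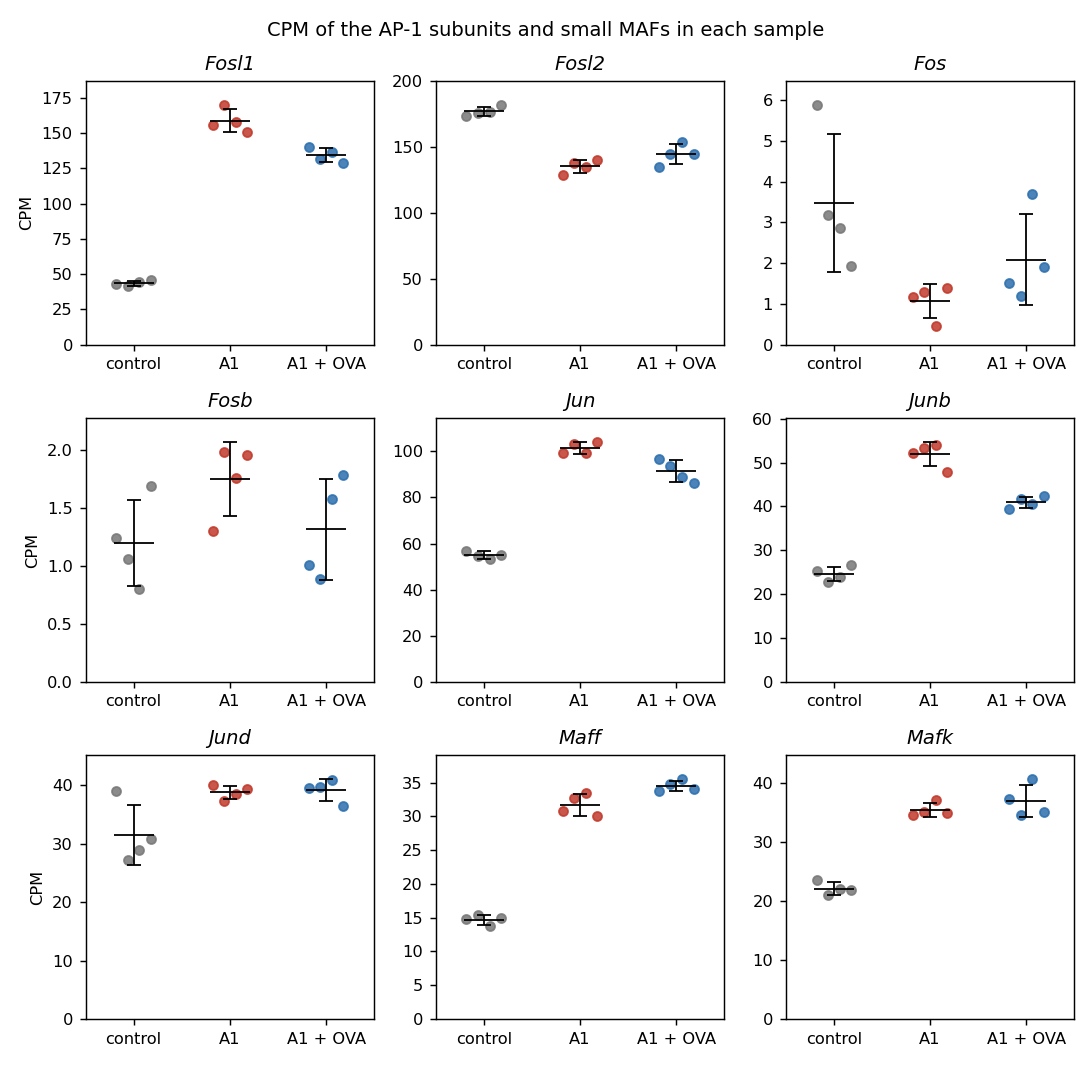
CPM of each of the 9 genes (vertical axes, each from 0) in the 4 samples of control, A1-treated and A1 + OVA-treated MSCs. Points are samples, and black marks are the group mean with its SD. Fosl1, Jun, Junb, Maff and Mafk lie above control in all 8 treated samples, Fosl2 lies below control in all 8, and the groups overlap for Fosb.

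With A1 + OVA against control, the same test called 6 members higher and 1 lower, and 2 did not pass. Of all tested genes, 57.6% passed this test, 29.7% as higher and 27.9% as lower. The median log2 fold change was 0.73 over the members and 0.004 over all tested genes. The comparisons of A1 and of A1 + OVA share the 4 control samples, so that their likeness is partly built in.

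Compared directly, Junb, Fosl1 and Jun were lower with A1 + OVA than with A1. The log2 fold changes were -0.34 (SE 0.05, adjusted p = 0.000285) for Junb, -0.24 (SE 0.04, adjusted p = 0.000659) for Fosl1 and -0.15 (SE 0.04, adjusted p = 0.0219) for Jun. Junb and Fosl1 were thus at 0.79 and 0.847 of their level with A1 alone, and all 3 stayed above control. The call for Jun was lost without A1 sample 2 (adjusted p = 0.0542), A1 sample 4 (0.0593), A1 + OVA sample 3 (0.067) or A1 + OVA sample 4 (0.0905). By edgeR 3 members were lower and 0 higher, while at an unadjusted p-value under 0.05 there were 3 lower and 3 higher, and DESeq2 also called 3 lower and 0 higher. Of all tested genes, 12.9% passed the adjusted edgeR test, 6.05% as higher and 6.81% as lower. Shares of all genes by the other rules are not given.

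The 3 members higher at an unadjusted p-value alone were Fos, Maff and Fosl2. Fos had the largest log2 fold change of them, 0.95, with a 95% interval of 0.07 to 1.82 and an adjusted p-value of 0.148, and without A1 + OVA sample 3 it was 0.52. It was number 24 of all tested genes from the highest log2 fold change in this comparison. Maff differed by 0.12 (SE 0.05, adjusted p = 0.155) and Fosl2 by 0.09 (SE 0.04, adjusted p = 0.138, and 0.0491 without A1 + OVA sample 1). Jund (0.01, SE 0.08), Mafk (0.06, SE 0.06) and Fosb (-0.39, SE 0.25) did not pass the test either, and for Fosb the interval is too wide to say how alike the treatments are.

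**Figure D2:**
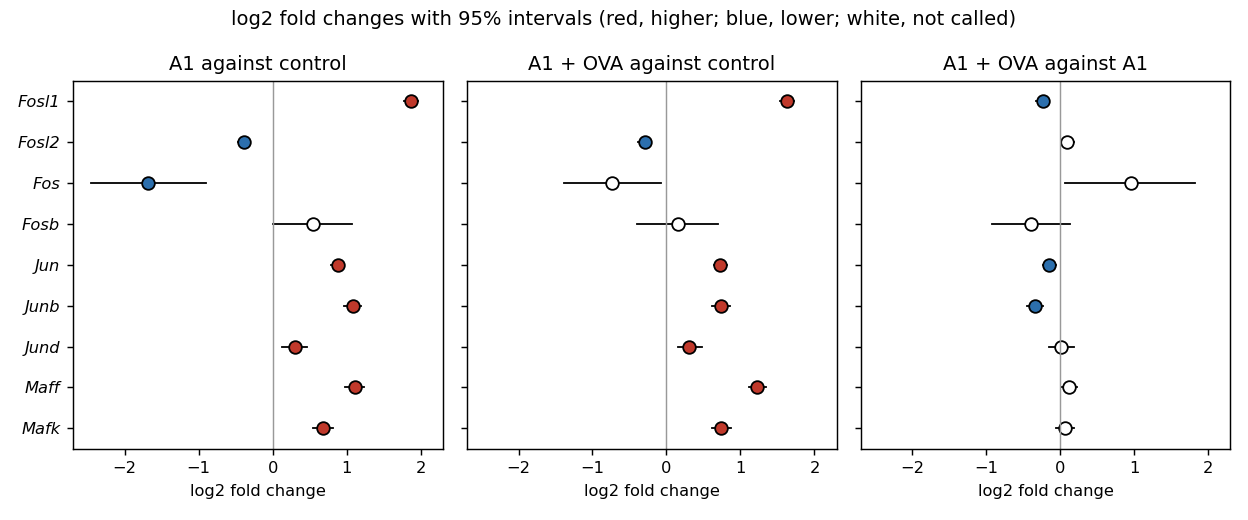
log2 fold change (horizontal axis) of each gene in the 3 comparisons, with its 95% interval as a line. Red points are higher and blue points lower at an adjusted p-value under 0.05, and white points did not pass. Fosl1 is farthest to the right in both comparisons with control (1.87 and 1.63), and Fos has the widest intervals.

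Levels of different genes were compared per length, as FPKM, the CPM per kilobase of the union of each gene's exons. In control MSCs Fosl1 (21.4 FPKM), Jund (18.9), Fosl2 (18.3) and Jun (17.3) were of like level. Fosl1 overlapped Jund and Jund overlapped Fosl2 over the samples, so that these neighbours did not differ beyond their spread. Junb followed at 10.7 FPKM, Mafk at 5.67 and Maff at 5.66, of which the last pair overlapped, and Fos (1.47) and Fosb (0.192) came last. With A1 the level of Fosl1 was 78.1 FPKM, ahead of Jun (31.8), Jund (23.3), Junb (22.5), Fosl2 (14), Maff (12.2), Mafk (9.09), Fos (0.456) and Fosb (0.28). Jund and Junb overlapped there, as did Fos and Fosb. With A1 + OVA the order was Fosl1 (66.2 FPKM), Jun (28.7), Jund (23.5), Junb (17.8), Fosl2 (15.0), Maff (13.3), Mafk (9.48), Fos (0.886) and Fosb (0.211).

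The make-up of the FOS-side transcripts shifted accordingly. Fosl1 made up 51.7% ± 1.2 (SD, n = 4) of the summed FPKM of Fos, Fosb, Fosl1 and Fosl2 in control, 84.1% ± 0.842 with A1 and 80.5% ± 1.33 with A1 + OVA. The share of Fosl2 was 44.2% ± 1.03, 15.1% ± 0.75 and 18.2% ± 0.976 in the same order, and that of Fos was 3.56% ± 1.72, 0.491% ± 0.193 and 1.07% ± 0.541. The ratio of Fosl1 to Fosl2 was 1.17 ± 0.0349 in control, 5.58 ± 0.322 with A1 and 4.44 ± 0.323 with A1 + OVA. The summed FPKM of the FOS side was 41.4, 92.8 and 82.2, and the rise of Fosl1 alone, from 21.4 to 78.1 and 66.2 FPKM, was larger than that of the sum.

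On the JUN side the shares moved less. Jun made up 37.0% ± 2.22, 41.0% ± 1.12 and 41.0% ± 1.26 of the summed FPKM in control, A1-treated and A1 + OVA-treated MSCs. Jund made up 40.2% ± 3.15, 30% ± 0.98 and 33.6% ± 1.08, and Junb 22.9% ± 1.43, 29% ± 1.44 and 25.5% ± 1.35. The sum was 46.8, 77.6 and 69.9 FPKM. FOS-side transcripts were thus scarcer than JUN-side transcripts in control, at a ratio of 0.888 ± 0.0586, and more abundant with A1 (1.2 ± 0.0492) and with A1 + OVA (1.18 ± 0.0367). The order in control depends on the gene lengths: with the longest transcript as length the ratio was 1.06 ± 0.0695 in control, against 1.28 ± 0.0484 and 1.28 ± 0.0407 with A1 and A1 + OVA. Of the small MAFs, Mafg held 49.3% ± 1.74 of the summed FPKM in control and 39.2% ± 1.29 with A1, while Maff went from 25.3% ± 1.35 to 34.9% ± 1.02. These shares rest on the annotated exon lengths: with the longest transcript as length, Fosl1 made up 44.5%, 79.7% and 75.5% of the FOS side, and Fosl2 came first in control. RNA levels do not give the levels of the proteins or of their dimers.

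**Figure D3:**
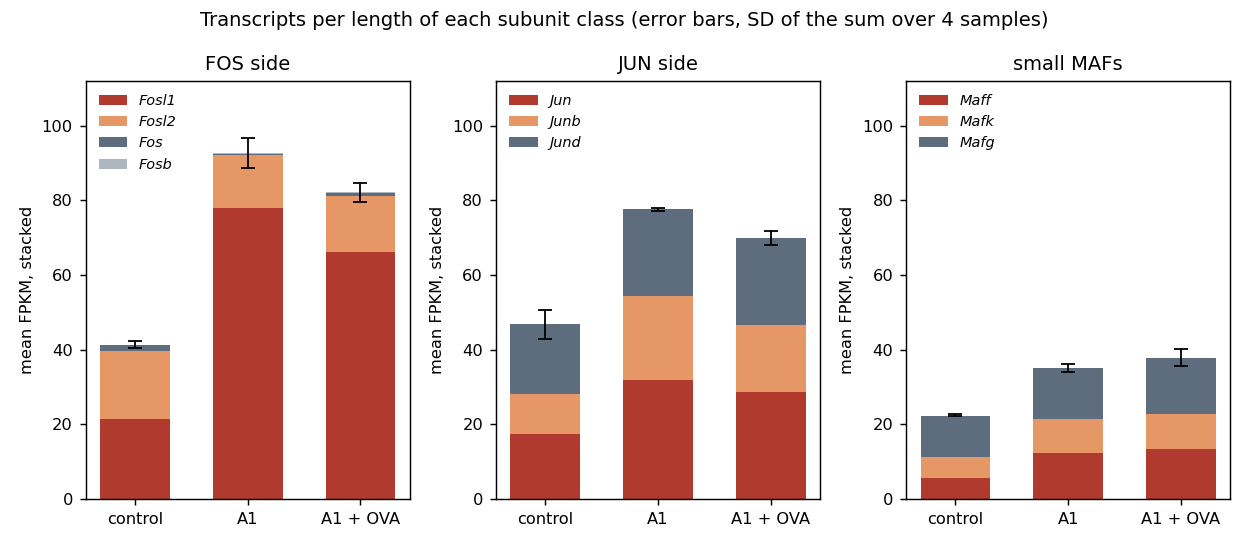
Mean FPKM of each gene, stacked by class, in control, A1-treated and A1 + OVA-treated MSCs. Error bars are the SD of the sum over 4 samples. The FOS-side sum goes from 41.4 to 92.8 and 82.2 FPKM, and Fosl1 (red) from 21.4 to 78.1 and 66.2 FPKM. Mafg is shown with Maff and Mafk, although it was not among the 9 genes.

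Partners and regulators of these proteins were counted from lists drawn up with earlier results of these data known, and the counts describe the lists without a test of them. Of 20 other leucine zipper partners and repressors, 14 were tested and 6 were higher and 4 lower with A1, that is 71.4% called beside 62.7% of all tested genes. Their median log2 fold change was 0.00. Atf3, a stress-induced ATF protein that pairs with JUN, rose from 3.62 ± 0.212 to 6.38 ± 0.75 CPM (log2 fold change 0.82, SE 0.13, adjusted p = 8.33e-06). Nfe2l2, the gene of NRF2, rose by 0.40 on the log2 scale (adjusted p = 1.4e-09), and Bach2 by 0.47 (adjusted p = 0.000526). Bach1, like Bach2 a repressor that pairs with small MAFs, fell by 0.18 (adjusted p = 0.00336) and was not called with A1 + OVA (adjusted p = 0.0568). The large MAF gene Maf, whose protein has the activation domain that small MAFs lack, fell from 143 ± 4.97 to 70.7 ± 2.89 CPM (log2 fold change -1.02, SE 0.04, adjusted p = 1.03e-14) and was at 58.9 ± 2.43 CPM with A1 + OVA. Nfe2l2 lies outside the rule for named genes and was chosen after its values were seen.

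Upstream, 24 of 26 kinase genes of the ERK, JNK and p38 cascades were tested, of which 6 were higher, 9 lower and 9 not called with A1 (median -0.05 on the log2 scale). The 62.5% called was near the 62.7% of all tested genes. The examples were Rps6ka4, which encodes the nuclear kinase MSK2 (0.65, adjusted p = 1.67e-09), and Map2k1, which encodes the ERK kinase MEK1 (0.44, adjusted p = 2.46e-09), on the higher side. On the lower side were Map3k5 (-0.47, adjusted p = 0.00211), which encodes ASK1, and Rps6ka5 (-0.37, adjusted p = 0.000188), which encodes MSK1. Of the 6 genes of SRF, its cofactors and the ternary complex factors, 4 were higher and 1 lower with A1 (83.3% called, median 0.34 on the log2 scale). Srf was at 46.5 ± 4.63 CPM in control, 68.8 ± 5.49 with A1 and 77.5 ± 5.84 with A1 + OVA (log2 fold changes 0.57 and 0.74, adjusted p = 4.08e-07 and 6.17e-09). Mrtfa rose by 0.58 with A1 (adjusted p = 1.52e-08), and Elk1 fell by 0.18 (adjusted p = 0.00744). Fos, the textbook target of SRF, fell with A1.

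Of 13 genes that act on the turnover of FOS and JUN proteins or of their RNA, 4 were higher, 4 lower and 5 not called with A1 (61.5% called, near the share of all tested genes, median log2 fold change 0.07). Zfp36l1, which binds AU-rich elements and speeds RNA decay, fell from 96.9 ± 7.24 to 35.0 ± 2.47 CPM (log2 fold change -1.47, SE 0.06, adjusted p = 4.85e-15) and was at 41.4 ± 1.65 CPM with A1 + OVA. Its relative Zfp36 (tristetraprolin) fell by 0.46 (adjusted p = 6.49e-05), while Zfp36l2 (0.33, adjusted p = 6.19e-08) and the RNA-stabilizing Elavl1 (0.30, adjusted p = 3.74e-07) rose.

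Among 34 genes known in general as AP-1 targets, 28 were tested. With A1, 20 were higher (71.4%, beside 31.7% of all tested genes), 7 lower (25%, beside 31.1%) and 1 not called, and the median log2 fold change was 0.94. With A1 + OVA, 19 were higher (67.9%, beside 29.7%), 6 lower (21.4%, beside 27.9%) and 3 not called, with a median of 0.67. The largest rise was that of Serpinb2, an inhibitor of plasminogen activators, from 0.52 ± 0.3 to 30.8 ± 3.58 CPM (log2 fold change 5.86, SE 0.17, adjusted p = 2.5e-17). The chemokine gene Cxcl1 (199 ± 10.1 to 39.3 ± 3.01 CPM, log2 fold change -2.34, adjusted p = 3.22e-19) and Bcl2l11, which encodes the death protein BIM (-0.75, adjusted p = 4.79e-07), fell. With A1 + OVA against A1, 5 of the targets were higher, 8 lower and 15 not called, with a median of -0.10, so that 46.4% were called beside 12.9% of all tested genes. Many of these genes answer to other factors as well, so that the counts do not measure AP-1 activity.

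**Figure D4:**
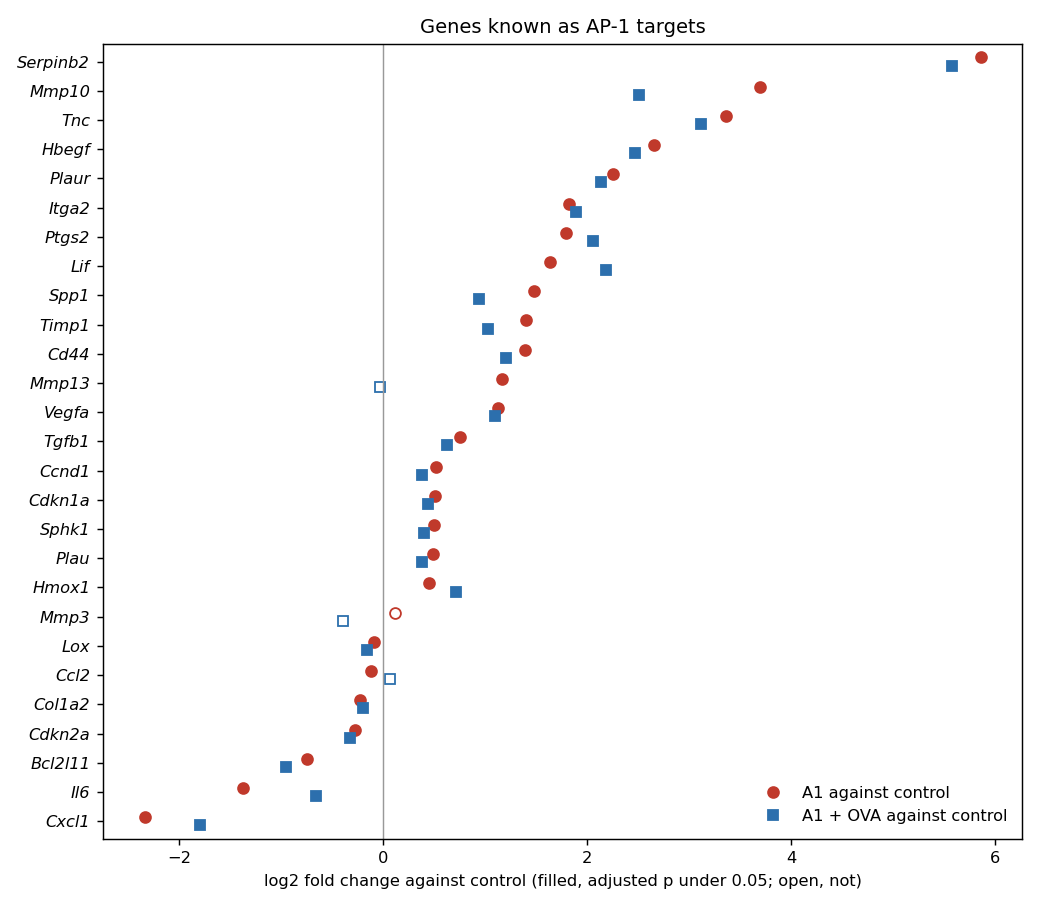
log2 fold change against control (horizontal axis) of tested genes known as AP-1 targets, ordered by their value with A1. Red circles are A1 and blue squares A1 + OVA. Filled symbols have an adjusted p-value under 0.05. Serpinb2 is highest (5.86 with A1) and Cxcl1 lowest (-2.34), and most of the symbols lie to the right of 0.

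Of 25 antioxidant response element targets, of which Hmox1 is also on the AP-1 list, 23 were tested, and 9 were higher, 7 lower and 7 not called with A1 (median log2 fold change 0.02), against 10, 7 and 6 with A1 + OVA (median 0.07). The shares with A1, 39.1% higher and 30.4% lower, were near those of all tested genes (31.7% and 31.1%). With A1 + OVA the shares were 43.5% higher and 30.4% lower, beside 29.7% and 27.9% of all tested genes. The cystine transporter gene Slc7a11 rose from 4.73 ± 0.409 to 11.4 ± 1.26 CPM (log2 fold change 1.27, adjusted p = 5.74e-10), and the thioredoxin reductase gene Txnrd1 from 355 ± 4.19 to 699 ± 24.9 CPM (0.98, adjusted p = 1.46e-15). The glutathione transferase genes Gsta4 (-0.90, adjusted p = 9.18e-09) and Gstm1 (-0.48, adjusted p = 3.96e-08) fell.

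Across the 12 samples, the genes whose log2 CPM was most like that of a member were picked from 10440 genes by Pearson's r. This is a description without a test, and differences between group means drive much of r for the members that changed strongly. Msn (r = 0.998), which encodes moesin, and Hmga2 (0.997) were most like Fosl1, Snx9 (0.997) and Wdr12 (0.997) most like Jun, and Ung (0.992) and Snai1 (0.99) most like Junb. For Maff they were Rab3ip (0.996) and Ccn2 (0.996), for Mafk Rin1 (0.992) and Fgfr1 (0.99), and for Fosl2 Plcg1 (0.986) and Per3 (0.985). Such values were common, since 1450 genes had an r over 0.9 with Fosl1. They were rarer for the scarce or little-changed members. The closest to Jund were Rack1 (0.955) and Ddr1 (0.945), to Fos Unc93b1 (0.932) and Selenoo (0.91), and to Fosb Anxa9 (0.881) and Ing3 (0.866), with 47, 5 and 0 genes over 0.9. Within groups, after the group means were taken off, the r between Fosl1 and Jun was 0.21 against 0.99 over all samples, and that between Maff and Mafk was 0.25 against 0.98. For the genes picked above it ran from 0.27 (Hmga2 with Fosl1) to 0.93 (Ddr1 with Jund). It was 0.89 and 0.79 for those of Fos, and 0.85 and 0.81 for those of Fosb. The picks were the best of 10440 genes over these same samples, so that a high r within groups is partly built in. Whether these genes vary together beyond that was not tested.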

How the data were processed

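The authors prepared strand-specific polyA libraries, mapped the reads to GRCm38 by STAR 2.7, summed them over genes by featureCounts 2.0 (versions from the submitters' processing notes) and deposited raw counts of 55487 genes without normalization. Names, biotypes and exon lengths came from GENCODE M21, an earlier release than the authors' annotation, which held 99.53% of the gene identifiers.

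Protein-coding genes kept by filterByExpr were scaled by TMM. A quasi-likelihood fit of edgeR 4.0.16 (R 4.3.3) held the 12 samples together, with the group as the only term, and Benjamini-Hochberg adjustment covered 11314 genes. Genes with an adjusted p-value under 0.05 were called, and the steps were tested on simulated data. CPM are counts divided by the TMM-scaled library size, FPKM are CPM per kilobase of exon, and r was computed on log2 CPM with a prior count of 2. The variance between replicates was 1.92 to 6.83 times that of counting alone in each pair, and no library was a copy of another. Alternatives were DESeq2 1.42.0, other scalings, filters and lengths, the replicate number as a block, and each sample left out.

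The members, lists and motifs were chosen with earlier results of these data known. Named genes were the 9 members, Mafg, up to 4 genes per list (the 2 largest rises and the 2 largest falls called with A1 whose average log2 CPM reached 1) and the 2 genes most alike to each member. Promoter sequences are from RefSeq (GRCm38.p6). Some genes that this rule selects are left out of the text and the plots.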

Additional observations from a re-analysis of the deposited data

How the results depend on the processing

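Over DESeq2, other scalings and filters, the groups fitted and each sample left out, 519 of 537 alternative log2 fold changes of the members kept their direction and their side of the threshold, 4 lost the call (all Jun between treatments), 11 gained it (7 of Fos with A1 + OVA) and 3 changed sign. The sign changes were those of values near 0, namely Fosb with A1 + OVA against control (-0.04 without A1 + OVA sample 4, and up to 0.36 without another sample) and Jund between treatments (-0.01 without A1 sample 2 and without A1 + OVA sample 3, and up to 0.05). Fos with A1 + OVA against control also passed under upper-quartile scaling (adjusted p = 0.0468), RLE scaling (0.0454) and no filter (0.00422). It did not pass with DESeq2 (0.169), all genes of the table (0.0557), only the 2 groups compared (0.0523) or the replicate block (0.051). Fos between treatments passed under no filter (0.0284). Over all alternatives these 2 comparisons of Fos had adjusted p-values of 0.00373 to 0.309 and 0.0284 to 0.479. Fos had 6 counts in A1 sample 3, so that the filter of 10 counts in every sample left it out. The cause of these changes was not tested.

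With each sample left out, 8 to 9 members were called with A1, 7 to 8 with A1 + OVA and 2 to 4 between treatments. In the fit of all samples 62.7%, 57.6% and 12.9% of all tested genes were called in these comparisons. With a log2 fold change of at least 0.5 as well, 6, 5 and 0 were called. The shares of all tested genes at this threshold, with a sample left out and with the replicate block below are not given. Over all tested genes the 95th percentile of the absolute log2 fold change was 1.13, 1.02 and 0.4 in these comparisons. With the replicate block the counts were 8, 7 and 3, and no call of a member changed. The deviations of like-numbered samples had a mean r of 0.021, running from -0.13 to 0.16 over 12 pairs, so that the numbers were not taken as pairs.

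The median log2 fold change of all tested genes stayed near 0. Each of these scalings centres the bulk of the genes, so that this is largely built in. It was -0.031 with A1 and -0.019 with A1 + OVA under upper-quartile scaling, and -0.008 with A1 + OVA over all genes of the table. Between treatments it was 0.001 with DESeq2 and with RLE scaling, 0.012 with upper-quartile scaling, 0.0 with no filter and -0.001 over all genes. With a sample left out it ran from -0.009 to 0.0 with A1, -0.008 to 0.007 with A1 + OVA and 0.002 to 0.007 between treatments. With the longest transcript as length, the places in the control order were 1 for Fosl2, 2 for Fosl1, 3 for Jund, 6 for Maff and 7 for Mafk, Jun held 38% and 38.3% of the JUN side with A1 and A1 + OVA, Fosl1 44.5%, 79.7% and 75.5% of the FOS side, and Mafg 46.2%, 36.2% and 36.7% of the small MAFs, and the ratio of FOS side to JUN side was 1.06, 1.28 and 1.28. Counts of 6 to 95 for Fos and 13 to 29 for Fosb limit what can be said of both.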
